A study of Mus musculus with 8 samples.

Results

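The Notch pathway of principal and intercalated cell fate was described here through 10 genes, chosen by symbol and all found among the 55291 genes of the deposited tables. They are the ligands Jag1, Jag2, Dll1 and Dll4, the ubiquitin ligase Mib1, the receptors Notch1, Notch2 and Notch3, and the target genes Hes1 and Hey1. RNA was sequenced from outer medullary collecting ducts, the last tubule segment of the outer kidney medulla, of C57BL/6J mice, an inbred laboratory strain. The mice ate a high-salt (3%) diet or a normal-salt (0.3%) diet for 3 days, with 4 libraries per diet. Ducts were microdissected from enzyme-digested kidneys, and each library held 100 to 120 tubules pooled from 1 mouse. The age and sex of the mice are not stated. The diets were compared to ask which duct transcripts differ with salt intake.

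Notch signalling passes between touching cells. A ligand on one cell binds a receptor on its neighbour, Mib1 marks the ligand so that the sending cell takes it up, and that pull lets proteases cut the receptor. The freed intracellular part enters the nucleus, joins the DNA-binding protein Rbpj and switches on repressors of the Hes and Hey family. In the collecting duct of mice, Notch signalling favours the principal cell, which takes up sodium and water, over the intercalated cell, which moves acid and base, and mice that lack Mib1 in this lineage form more intercalated cells.

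Promoters of the 3 receptors are shown because their shares by counts, though not by TPM, did not overlap between the diets, as described further on. RefSeq sequences on GRCm38.p6 (mm10), from 250 bases before to 50 bases after each start, were read for 7 of the 10 members. No window was read for Hes1, Hey1 or Mib1. Capitals mark CACNAG, the N-box to which Hes1 can bind, on either strand.
Notch1, chr2:26503773-26504072, minus strand: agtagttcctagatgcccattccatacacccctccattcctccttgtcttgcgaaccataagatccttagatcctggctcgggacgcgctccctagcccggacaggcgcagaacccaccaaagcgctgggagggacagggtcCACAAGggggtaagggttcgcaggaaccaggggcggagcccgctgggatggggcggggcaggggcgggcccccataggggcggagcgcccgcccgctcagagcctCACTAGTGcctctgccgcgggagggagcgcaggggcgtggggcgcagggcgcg
Notch2, chr3:98013288-98013587, plus strand: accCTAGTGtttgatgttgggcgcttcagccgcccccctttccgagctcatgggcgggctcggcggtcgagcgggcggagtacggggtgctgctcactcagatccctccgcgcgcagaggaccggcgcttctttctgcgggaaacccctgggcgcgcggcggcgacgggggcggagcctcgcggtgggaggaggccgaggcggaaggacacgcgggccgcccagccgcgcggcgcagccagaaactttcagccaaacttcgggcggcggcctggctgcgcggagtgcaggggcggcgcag
Notch3, chr17:32166841-32167140, minus strand: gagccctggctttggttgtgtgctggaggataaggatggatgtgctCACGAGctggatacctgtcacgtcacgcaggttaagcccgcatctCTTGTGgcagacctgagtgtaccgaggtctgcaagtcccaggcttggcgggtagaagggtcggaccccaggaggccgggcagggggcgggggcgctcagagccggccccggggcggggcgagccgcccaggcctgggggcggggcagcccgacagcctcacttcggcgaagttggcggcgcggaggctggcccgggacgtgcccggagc
Notch1 held 3 N-boxes, of which 2 overlap each other on opposite strands, Notch2 held 1 and Notch3 held 2, and 42.6% of 32544 promoters of this length held at least 1. The letters TGGGAA, the core bound by Rbpj, occurred on either strand in 0 of the 8 promoters of these 7 members and in 25.4% of all promoters. The target genes Hes1 and Hey1 are not among these members, so the count does not cover them. GGGCGG, the GC-box, occurred on either strand 5 times in Notch1, 7 times in Notch2 and 4 times in Notch3. Of the 7 members Jag1 and Dll1 held none, and 35.9% of all promoters held at least 1. The GC content of the 3 receptor windows was 68.3% to 73.0%, against a median of 53.0% over all promoters. These matches are descriptions of the letters in the windows. In the GENCODE annotation of mm10 Notch1 lies at chr2:26457903-26516663, so that its RefSeq window falls inside the gene, Notch2 lies at chr3:98013527-98150361 and Notch3 at chr17:32120820-32166852.

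Recovered totals were 69.2 to 87.7 M estimated counts in high-salt libraries and 64.8 to 94.1 M in normal-salt libraries. Markers of the labelled tissue were present: Aqp2, the water channel of principal cells, had 14296 to 18026 CPM (counts relative to the total of the library) under high salt and 7581 to 12288 CPM under normal salt, and Slc4a1, the anion exchanger of acid-secreting intercalated cells, had 2072 to 3017 CPM and 2074 to 3257 CPM. Normal-salt library 1 stood apart. Its genes with a longest annotated transcript of 6000 bases or more lay a median of 0.34 below their diet's mean on the log2(CPM + 1) scale, and its genes under 2000 bases lay 0.25 above it. In the other 7 libraries the same medians lay between -0.04 and 0.19 for the long genes and between -0.14 and 0.03 for the short ones. The values 0.19 and -0.14 both belonged to normal-salt library 6. The mean of normal salt includes library 1, so its values shift those of normal-salt libraries 2, 3 and 6 the other way. Notch1, Notch2, Notch3 and Mib1 are in the long class. The part of transcript length in their values was not tested, and the log2 fold change of each is given with and without this library.

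**Figure D1:**
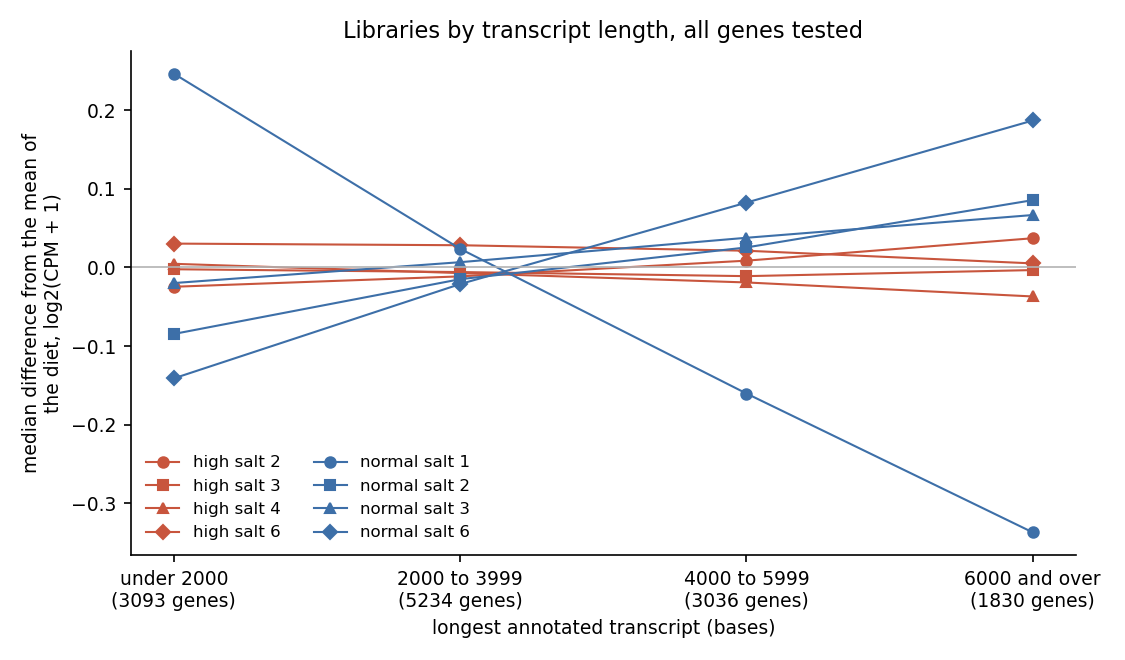
Each line is 1 library and shows, for 4 classes of the longest annotated transcript (x axis, in bases), the median difference of all tested genes from the mean of their diet (y axis, log2(CPM + 1)). Normal-salt library 1 runs from 0.25 in the shortest class to -0.34 in the longest, and the lines of the other 7 libraries lie between -0.14 and 0.19. The mean of normal salt includes library 1.

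All 10 members passed the filter of 1 CPM in at least 4 of the 8 libraries, and 0 of 10 were called between the diets by limma at an adjusted p under 0.05, where 0.0821% of the 13401 genes tested were called (0.0298% as higher under high salt and 0.0522% as lower). At an unadjusted p under 0.05 there were 2 members, Notch1 and Notch3, both higher under high salt. The share of all genes past that level was 10.3%, made up of 5.95% higher and 4.37% lower. Without normal-salt library 1, Notch1 and Notch3 missed this level in limma (unadjusted p = 0.0628 and 0.0505, adjusted p = 0.401 and 0.372). Notch2 then passed it as lower, with a log2 fold change of -0.36 (limma unadjusted p = 0.00157, adjusted p = 0.105), where 13.5% of 13242 genes passed and 0.37% were called. In 0 of the 10 members did the 4 libraries of one diet all lie above those of the other, against 6.4% of all genes. Limma's voom on the estimated counts also called 0 members, and 10 of the 13401 genes. The median log2 fold change of the members was 0.08 (range -0.35 to 0.56) and that of all genes 0.01. Bulk libraries cannot tell fewer cells of a type from less RNA per cell.

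**Figure D2:**
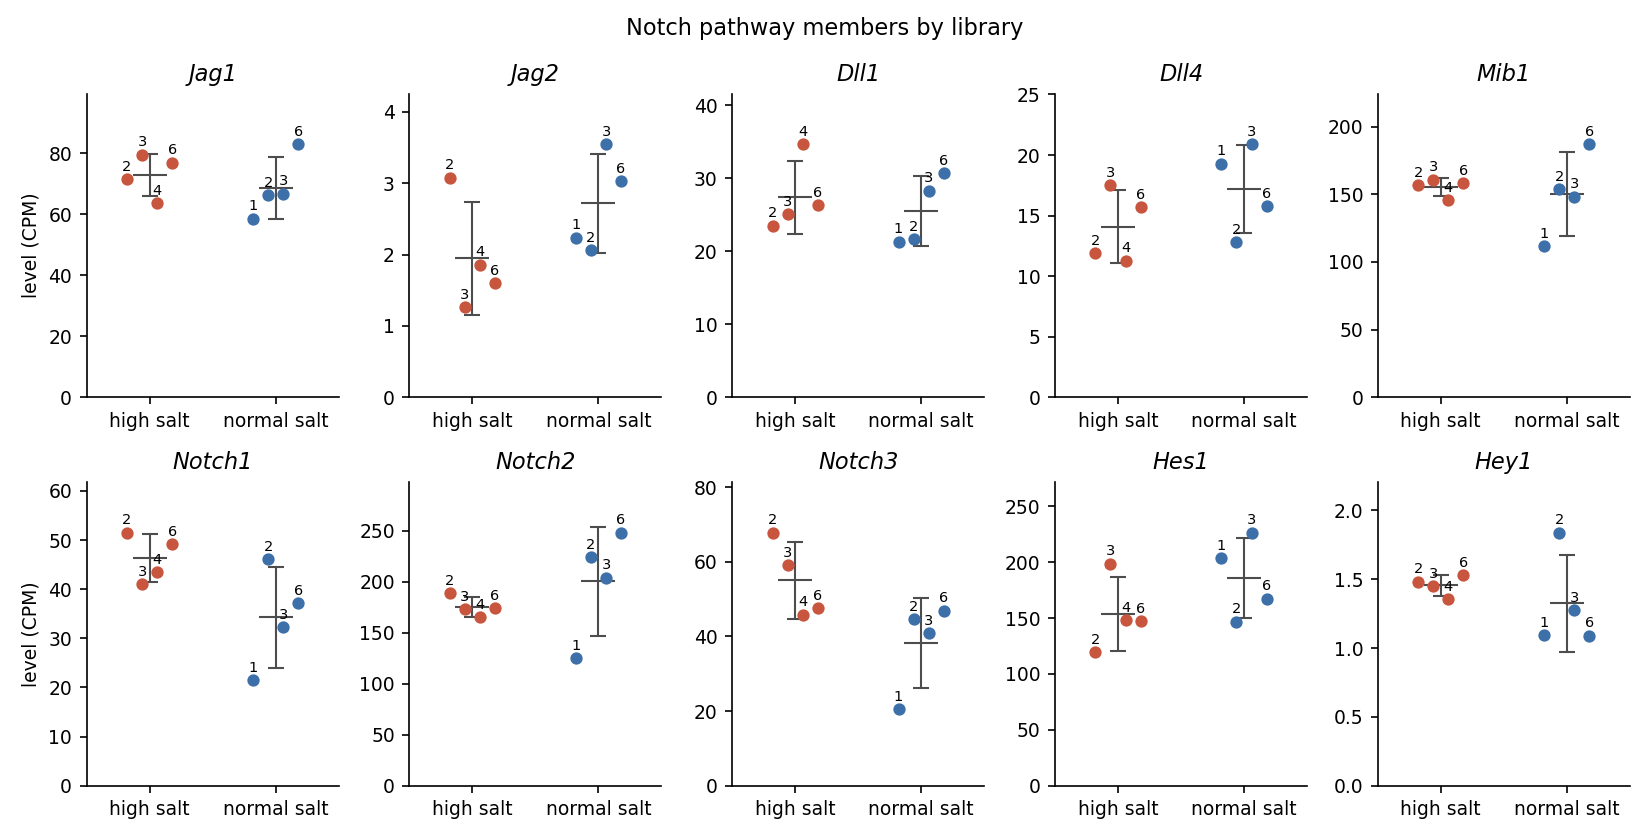
Levels of the 10 members (y axis, CPM, from 0) in each library, with high salt left of normal salt in every panel. Points are libraries with their column number, and bars give the mean and SD of 4. The diets overlap in every panel, and normal-salt library 1 is the lowest of the 8 libraries in Notch1 (21.4 CPM), Notch2 (124.7 CPM), Notch3 (20.6 CPM) and Mib1 (111.9 CPM).

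Among the ligands, Jag1, which intercalated cells of the mouse collecting duct present to their neighbours, had the highest level. It was measured at 71.6, 79.5, 63.7 and 76.9 CPM in high-salt libraries 2, 3, 4 and 6, against 58.6, 66.3, 66.7 and 83.0 CPM in normal-salt libraries 1, 2, 3 and 6. The lowest and the highest value both belonged to normal salt, so the diets overlapped fully. Jag1 had a log2 fold change of 0.09 (SE 0.12, 95% interval -0.17 to 0.35, limma adjusted p = 0.834). With 1 library left out it lay between 0.02 without normal-salt library 1 and 0.19 without normal-salt library 6.

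Dll1, a ligand of the Delta family, had 23.5, 25.1, 34.7 and 26.3 CPM in high-salt libraries 2, 3, 4 and 6, against 21.3, 21.7, 28.3 and 30.7 CPM in normal-salt libraries 1, 2, 3 and 6. High-salt library 4 was the highest of the 8, and the diets overlapped. Its log2 fold change of 0.10 (SE 0.16, limma adjusted p = 0.870) had the other sign, -0.01, without high-salt library 4.

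Dll4, a Delta ligand best known from endothelium, had 11.9, 17.5, 11.3 and 15.7 CPM in high-salt libraries 2, 3, 4 and 6, against 19.3, 12.8, 20.9 and 15.8 CPM in normal-salt libraries 1, 2, 3 and 6. High-salt libraries 2 and 4 were the lowest and normal-salt libraries 1 and 3 the highest, with overlap between. The log2 fold change was -0.27 (SE 0.18, 95% interval -0.67 to 0.13, limma adjusted p = 0.668). The 11 endothelial markers summed to 211 to 343 CPM under high salt and 232 to 355 CPM under normal salt, with a median log2 fold change of -0.14 and 10 of 11 below 0. Their defining genes Pecam1 (19.3 to 30.6 CPM under high salt and 18.1 to 27.4 CPM under normal salt) and Cdh5 (9.29 to 14.6 CPM and 8.61 to 15.6 CPM) were present in every library. With the mean of these markers as a covariate the log2 fold change of Dll4 was -0.36 (limma adjusted p = 0.365).

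Jag2, the second Jagged ligand, was near the bottom of the range, on 95 to 334 estimated counts per library. Its values were 3.08, 1.26, 1.86 and 1.60 CPM in high-salt libraries 2, 3, 4 and 6, against 2.24, 2.06, 3.55 and 3.03 CPM in normal-salt libraries 1, 2, 3 and 6. High-salt libraries 3, 4 and 6 lay below all normal-salt libraries and high-salt library 2 lay among them. Jag2 had a log2 fold change of -0.35 (SE 0.22, limma adjusted p = 0.643), with values from -0.52 without high-salt library 2 to -0.24 without high-salt library 3.

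Mib1, which ubiquitinates the ligands in the sending cell, had 156.9, 160.8, 145.9 and 158.5 CPM in high-salt libraries 2, 3, 4 and 6, against 111.9, 154.0, 148.3 and 187.2 CPM in normal-salt libraries 1, 2, 3 and 6. The high-salt values lay close together inside the range of normal salt. Mib1 had a log2 fold change of 0.07 (SE 0.14, 95% interval -0.23 to 0.37, limma adjusted p = 0.901) and -0.06 without normal-salt library 1.

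The log2 fold changes of the receptors did not share a sign. Notch1 had 51.5, 41.1, 43.5 and 49.1 CPM in high-salt libraries 2, 3, 4 and 6, against 21.4, 46.1, 32.3 and 37.1 CPM in normal-salt libraries 1, 2, 3 and 6. Only normal-salt library 2 lay within the high-salt range. The log2 fold change was 0.47 (SE 0.19, 95% interval 0.04 to 0.90), with an unadjusted p of 0.0351 and an adjusted p of 0.439 by limma, and the exact two-sided permutation test over 70 assignments gave p = 0.0857. Without normal-salt library 1 the log2 fold change was 0.27 (limma adjusted p = 0.401).

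Notch3, a receptor known above all from the mural cells around vessels, had 67.8, 59.1, 45.8 and 47.6 CPM in high-salt libraries 2, 3, 4 and 6, against 20.6, 44.6, 40.8 and 46.9 CPM in normal-salt libraries 1, 2, 3 and 6. The diets overlapped only in high-salt library 4 and normal-salt library 6. The log2 fold change was 0.56 (SE 0.24, 95% interval 0.04 to 1.09), with an unadjusted p of 0.0373 and an adjusted p of 0.446 by limma, and p = 0.0571 in the exact permutation test, whose smallest possible p is 0.0286. It was 0.30 without normal-salt library 1 (limma adjusted p = 0.372).

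Markers of fibroblasts and pericytes are given beside Notch3. The 12 markers summed to 106.1, 195.5, 88.9 and 170.2 CPM in high-salt libraries 2, 3, 4 and 6, against 323.8, 93.7, 95.5 and 76.3 CPM in normal-salt libraries 1, 2, 3 and 6. Notch3 was lowest in normal-salt library 1, where these markers were highest and where genes of the long class, Notch3 among them, lay low. Of the 9 markers tested, 7 had log2 fold changes above 0 and 2 below, with a median of 0.11. The part of these cells in the values of Notch3 was not tested. Pdgfrb, the receptor that defines pericytes, had 1.40 to 3.09 CPM under high salt and 1.02 to 3.89 CPM under normal salt, and Acta2, the smooth muscle actin, had 0.695 to 1.51 CPM and 0.165 to 0.740 CPM, which overlapped in normal-salt library 1. With the mean of these markers as a covariate limma called 1 member, Notch3 (log2 fold change 0.66, adjusted p = 0.0490), where 2.3% of the 13401 genes were called. Without normal-salt library 1 the same covariate gave 0.34 for Notch3 (limma adjusted p = 0.663), in a fit chosen after the values had been seen. No other library was left out together with this covariate. The adjusted p of Notch3 lay between 0.0490 and 0.835 over all alternatives.

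Notch2, the receptor with the highest level here, had 188.8, 172.9, 164.9 and 174.1 CPM in high-salt libraries 2, 3, 4 and 6, against 124.7, 224.1, 203.8 and 248.0 CPM in normal-salt libraries 1, 2, 3 and 6. Normal-salt libraries 2, 3 and 6 lay above all high-salt libraries and normal-salt library 1 below them. The log2 fold change was -0.15 (SE 0.18, 95% interval -0.55 to 0.25, limma adjusted p = 0.828), and -0.36 without normal-salt library 1 (limma adjusted p = 0.105).

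**Figure D3:**
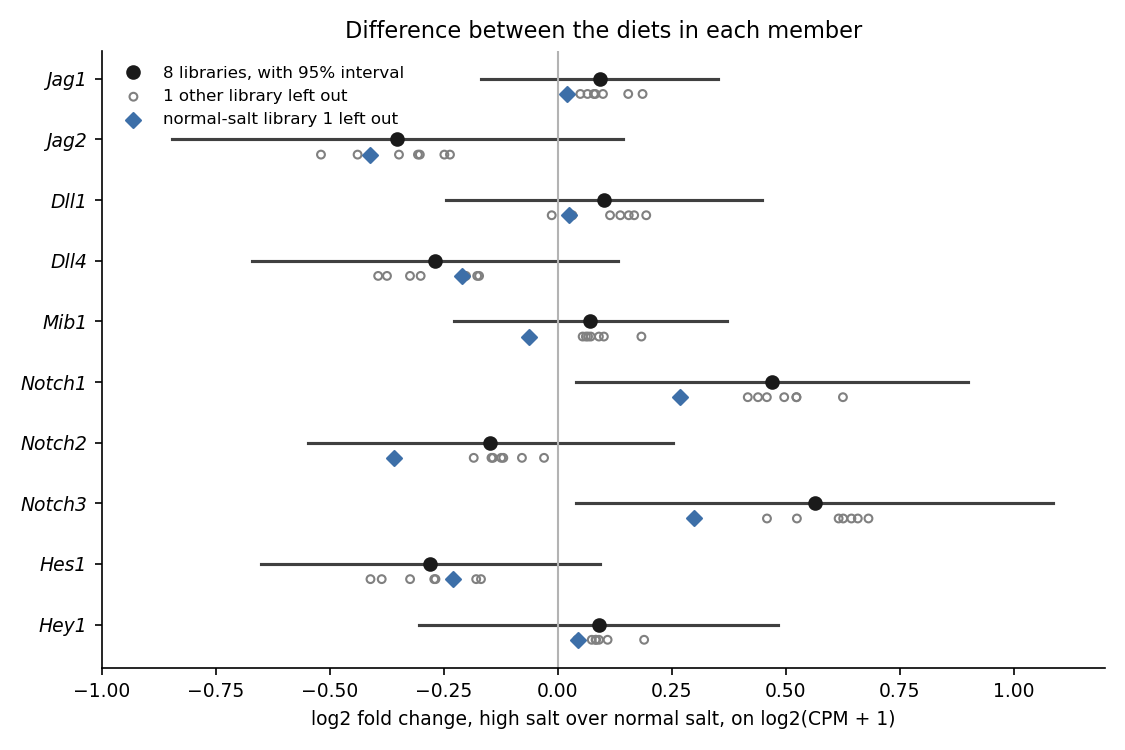
Log2 fold change of each member, high salt over normal salt, on the log2(CPM + 1) scale (x axis). Black points and lines give the value and 95% interval from 8 libraries, open circles the values with 1 library left out and blue diamonds those without normal-salt library 1. The intervals of Notch1 (0.04 to 0.90) and Notch3 (0.04 to 1.09) lie above 0 before adjustment, and those of the other 8 members include 0.

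By counts, though not by TPM, the receptors relative to each other separated the diets, whereas their levels overlapped. Notch2 took 59.4%, 62.1%, 62.7% and 62.1% of the estimated counts of the 4 Notch receptors in high-salt libraries 2, 3, 4 and 6, against 72.3%, 69.8%, 71.8% and 72.2% in normal-salt libraries 1, 2, 3 and 6. Every high-salt library lay below every normal-salt library, normal-salt library 1 included. The levels of 6.4% of single genes also did not overlap, and how often shares within other gene families do so was not counted. The Wilson 95% interval of a single library was at most 0.830 percentage points to either side, which covers counting error only. The shares averaged 61.5% ± 1.49 under high salt and 71.5% ± 1.181 under normal salt (SD, n = 4 each).

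For every 100 counts of Notch2 there were 27.3, 23.8, 26.4 and 28.2 counts of Notch1 in high-salt libraries 2, 3, 4 and 6, against 17.2, 20.6, 15.9 and 15.0 in normal-salt libraries 1, 2, 3 and 6. The corresponding numbers for Notch3 were 35.9, 34.2, 27.8 and 27.4 in the high-salt libraries, against 16.5, 19.9, 20.03 and 18.9 in the normal-salt libraries. Neither ratio overlapped between the diets, but both ratios and the share rest on the same Notch2 counts. How often ratios of other gene pairs do so was not counted. The ratio of Notch1 to Notch3 did overlap, at a mean log2 ratio of -0.24 ± 0.27 under high salt and -0.14 ± 0.23 under normal salt (SD, n = 4 each). These shares and ratios were chosen after the values had been seen, so they are given as a description with no test, and a ratio does not tell which receptor differed.

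The 3 receptors have longest annotated transcripts of 8016 to 10500 bases, so all fall in the long class. On the TPM scale, which takes transcript length into account, Notch2 made up 47.1%, 57.7%, 56.0% and 53.5% of receptor transcripts in high-salt libraries 2, 3, 4 and 6, against 55.9%, 66.3%, 60.8% and 68.2% in normal-salt libraries 1, 2, 3 and 6. The diets overlapped there, in normal-salt library 1 and high-salt libraries 3 and 4. The ratio of CPM to TPM of Notch1, which has 11 annotated transcripts, ranged from 4.36 to 6.41 under high salt and from 4.05 to 7.01 under normal salt, whereas that of Notch2, with 2 annotated transcripts, ranged from 6.73 to 6.92 and from 6.43 to 7.82. The length that the authors' tables assign to Notch1 therefore varied between libraries of the same diet. Notch4, the receptor of endothelium, had 5.603 to 9.998 CPM under high salt and 5.89 to 11.3 CPM under normal salt (log2 fold change 0.16, limma adjusted p = 0.857). Its ratio of CPM to TPM ranged from 2.02 to 4.47 under high salt and from 1.44 to 4.37 under normal salt. It took 14.3% of receptor TPM in normal-salt library 1, against 2.83% to 7.66% in normal-salt libraries 2, 3 and 6. Under high salt it took 2.86% to 8.40%. The TPM share of Notch2 depends on that of Notch4, and shares without Notch4 were not computed.

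**Figure D4:**
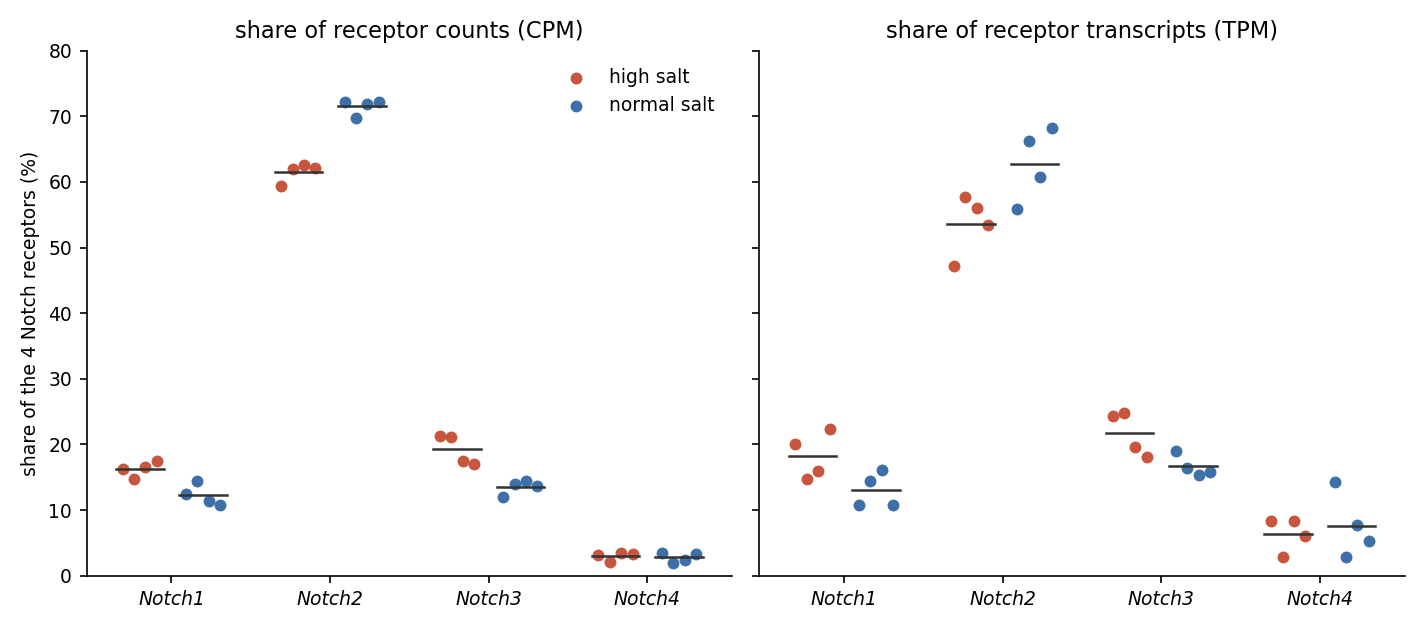
Share of each receptor in the 4 Notch receptors (y axis, %), by counts (CPM, left) and by transcripts (TPM, right), with 1 point per library, high salt left of normal salt, and lines at the means of 4. By counts the high-salt libraries hold 59.4% to 62.7% Notch2 and the normal-salt libraries 69.8% to 72.3%; by transcripts the ranges are 47.1% to 57.7% and 55.9% to 68.2%.

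Shares of the ligands overlapped between the diets. Jag1 accounted for 50.3% ± 4.28 of the TPM of the 4 ligands under high salt and 47.8% ± 4.14 under normal salt, Dll1 for 34.8% ± 6.03 and 32.2% ± 2.39, and Dll4 for 13.0% ± 2.35 and 17.2% ± 2.46 (SD, n = 4 each).

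Among the targets, Hes1, a repressor switched on directly by cleaved Notch, had 119.6, 198.6, 148.2 and 147.4 CPM in high-salt libraries 2, 3, 4 and 6, against 203.8, 146.8, 226.4 and 167.2 CPM in normal-salt libraries 1, 2, 3 and 6. Normal-salt libraries 1 and 3 were the highest and high-salt library 2 the lowest, and the rest overlapped. Hes1 had a log2 fold change of -0.28 (SE 0.17, 95% interval -0.65 to 0.09, limma adjusted p = 0.623), and the exact permutation p was 0.2. With 1 library left out it lay between -0.17 without high-salt library 2 (-0.18 without normal-salt library 3) and -0.41 without high-salt library 3. Hey1, a related repressor, had 1.48, 1.45, 1.36 and 1.53 CPM under high salt, against 1.10, 1.84, 1.28 and 1.09 CPM under normal salt, in the same order of libraries. Its high-salt values lay within the normal-salt range (log2 fold change 0.09, SE 0.18, limma adjusted p = 0.906), on 71 to 157 estimated counts per library.

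Per transcript length the members spanned a wide range of levels. Hes1 led with 198.9 ± 41.0 TPM under high salt and 237.7 ± 39.3 TPM under normal salt (SD, n = 4 each) and exceeded every other member in all 8 libraries. Mib1 followed with 34.3 ± 2.38 TPM and 36.0 ± 3.03 TPM, Notch2 with 25.7 ± 1.62 TPM and 29.6 ± 9.77 TPM, and Jag1 with 22.7 ± 2.13 TPM and 20.9 ± 4.15 TPM. Notch2 stood at 15.96 TPM in normal-salt library 1 and at 29.96 to 38.6 TPM in the other 3 normal-salt libraries. The ranges of Notch2 and Jag1 overlapped in both diets, and those of Mib1 and Notch2 overlapped under normal salt and not under high salt. Within libraries, Mib1 exceeded Notch2 in all 4 of each diet. Notch2 exceeded Jag1 in 4 high-salt and 3 normal-salt libraries.

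Dll1 came next with 15.7 ± 2.89 TPM under high salt and 13.9 ± 1.11 TPM under normal salt, then Notch3 with 10.6 ± 2.75 TPM and 7.60 ± 1.55 TPM. Notch1 and Dll4 changed places, with Notch1 at 8.97 ± 2.75 TPM and 6.14 ± 2.20 TPM and Dll4 at 5.86 ± 1.24 TPM and 7.47 ± 1.501 TPM. Their ranges overlapped in both diets, so that order rests within the spread. Hey1 with 1.13 ± 0.169 TPM and 1.01 ± 0.389 TPM and Jag2 with 0.863 ± 0.372 TPM and 1.25 ± 0.737 TPM were the lowest and overlapped each other.

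**Figure D5:**
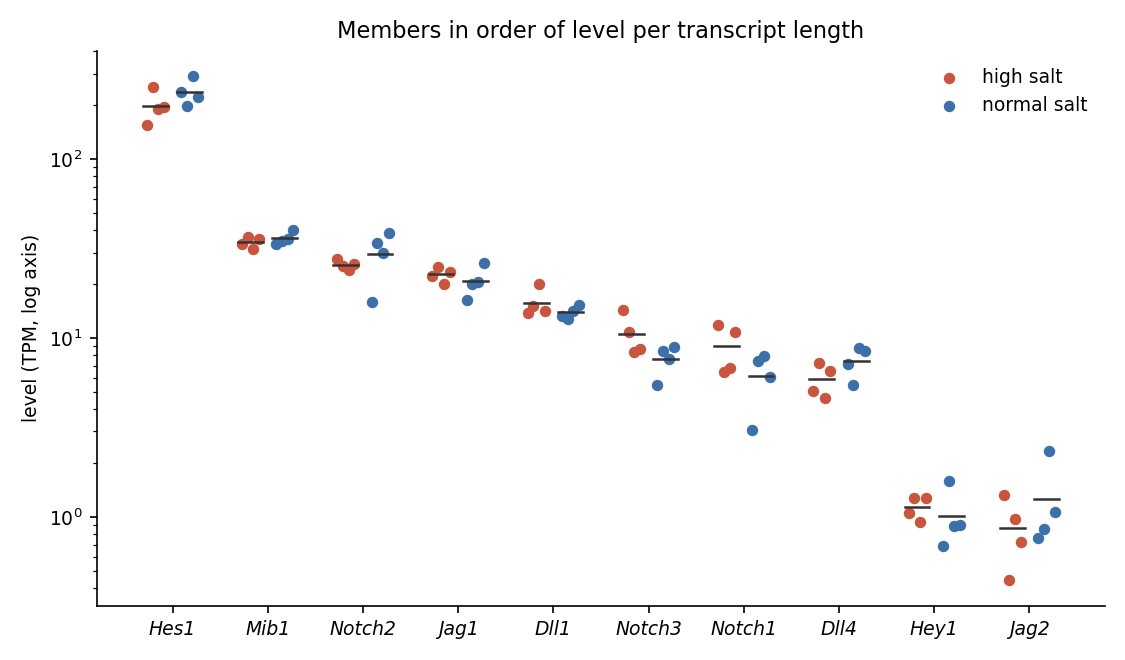
Levels of the 10 members in TPM (y axis, log scale), ordered by their mean over 8 libraries, with 1 point per library, high salt left of normal salt, and lines at the means of 4. Hes1 lies between 154.4 and 291.4 TPM, above all other members, and Hey1 and Jag2 lie between 0.441 and 2.34 TPM.

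Of 45 other genes of the pathway, 38 were tested and 0 were called by limma at an adjusted p under 0.05, against 0.0821% of all genes. Of the 38 log2 fold changes, 19 lay above and 19 below 0. At an unadjusted p under 0.05 there were 2, or 5.26%, against 10.3% of all genes, and both were lower under high salt. The median size of the log2 fold change, without its sign, was 0.12 in these 38 genes, 0.21 in the 10 members and 0.12 in all genes tested. Of the 10 members 4 are in the long class, and members and lists were chosen with earlier results of these data known. The difference between these medians was not tested.

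Maml3, a Mastermind coactivator that joins cleaved Notch and Rbpj, had 12.7, 7.53, 12.9 and 14.3 CPM in high-salt libraries 2, 3, 4 and 6, against 15.97, 15.7, 15.3 and 21.8 CPM in normal-salt libraries 1, 2, 3 and 6. All high-salt libraries lay below all normal-salt libraries, which 6.4% of all genes showed in one direction or the other. Its log2 fold change was -0.52 (SE 0.19, unadjusted p = 0.0206, limma adjusted p = 0.371). Cir1, a corepressor that works with Rbpj, had 30.7 to 41.6 CPM under high salt and 40.9 to 48.4 CPM under normal salt (log2 fold change -0.26, unadjusted p = 0.0401, limma adjusted p = 0.452). Aph1b, a part of gamma-secretase and the pathway gene with the next smallest p, had 38.4 to 53.5 CPM and 50.5 to 60.3 CPM (-0.21, unadjusted p = 0.108, limma adjusted p = 0.596).

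Genes of the shared machinery were measured too. Rbpj had 41.5 to 45.9 CPM under high salt and 42.5 to 49.4 CPM under normal salt (log2 fold change -0.07, 95% interval -0.26 to 0.12). Adam10, the protease of the first activating cut, had 99.7 to 122.3 CPM and 93.4 to 113.6 CPM (0.12, 95% interval -0.10 to 0.33). By step, log2 fold changes above 0 were found in 5 of 9 genes of receptor cleavage, 4 of 5 of receptor glycosylation, 2 of 4 of ligand endocytosis, 3 of 6 of receptor regulation, 1 of 6 of nuclear activation, 1 of 4 corepressors and 2 of 3 targets, against 52.8% of all genes tested.

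Other targets were also measured. Nrarp, a feedback inhibitor induced by Notch, had 8.29 to 21.4 CPM under high salt and 8.01 to 16.9 CPM under normal salt (log2 fold change 0.01, limma adjusted p = 0.996). Hes5, another Notch-induced repressor, was below the filter, with 0 to 0.0665 CPM under high salt and 0 to 0.0703 CPM under normal salt. A count of 0 allows up to 3 counts, or 0.0319 to 0.0463 CPM in these libraries.

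Factors of cell fate were compared as well. Foxi1, which intercalated cells require, had 371 to 589 CPM under high salt and 416 to 552 CPM under normal salt (log2 fold change -0.06, limma adjusted p = 0.932). Elf5, a factor of principal cells, had 135.8 to 209.3 CPM and 114.6 to 171.2 CPM (0.25, limma adjusted p = 0.611). Tfcp2l1, which mice need to form both duct cell types, had 2619 to 3106 CPM and 2130 to 3376 CPM (-0.02, limma adjusted p = 0.974). Of all 6 factors 0 were called and 0 had an unadjusted p under 0.05 by limma, against 0.0821% and 10.3% of all genes. The other 3 were Hmx2 (-0.54), Gata3 (0.09) and Grhl2 (-0.12), with limma adjusted p from 0.746 to 0.831.

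Marker sums of both duct cell types did not overlap between the diets, which 6.4% of single genes showed. The 12 principal cell markers summed to 31062 to 35820 CPM under high salt and 22417 to 28435 CPM under normal salt, a sum led by Aqp2, with 6 of 12 log2 fold changes above 0, a median of 0.01 and 1 call (Scnn1a, lower, named outside the rule). At an unadjusted p under 0.05, 3 of these 12 were higher and 2 lower, against 5.95% and 4.37% of all genes. The 17 intercalated cell markers summed to 11003 to 12829 CPM and 13147 to 13777 CPM, with 14 of 17 below 0, a median of -0.25 and 0 calls (6 lower at an unadjusted p under 0.05, against 4.37% of all genes). Thick ascending limb markers, of the neighbouring segment, summed to 95.8 to 2703 CPM and 593 to 2125 CPM, with 8 of 8 log2 fold changes below 0, a median of -1.08 and 0 calls, and with Umod at 35.7 to 1695 CPM and 355 to 1368 CPM and Slc12a1 at 23.5 to 563 CPM and 146 to 361 CPM. Macrophage markers summed to 20.7 to 32.6 CPM and 20.2 to 65.1 CPM, highest in normal-salt library 1. The part of macrophages in the members' values was not tested. With the thick ascending limb mean as a covariate limma called 0 members and 37 of the 13401 genes. The log2 fold change was then 0.42 for Notch1 and 0.35 for Notch3. Without normal-salt library 1 that fit gave 0.29 for Notch1 and 0.20 for Notch3. It called 0 members and 71 of 13242 genes.

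The genes whose pattern over the 8 libraries was most like that of Hes1 were Gadd45g (Pearson r = 0.978), Pbxip1 (0.953), Zfp235 (0.940) and Rassf7 (0.936), out of 10420 genes at 5 CPM or more. For Jag1 they were Hnrnpul2 (0.991), Apbb2 (0.966), Grik5 (0.957) and Dennd1b (0.955). All points share the libraries and their depth, and with 8 libraries 26 genes for Hes1 and 35 genes for Jag1 exceeded 0.9, so these values are a description.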

How the data were processed

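The authors deposited 1 table of CPM and 1 table of TPM, each with 8 libraries. FastQC, Trimmomatic and build mm10 are named in the submitters' processing notes, and a stranded mRNA kit per the labels' protocols. Aligner, counter, strand setting and annotation are not stated there. The values deposited as CPM are log2 values with a shared floor of -5.29. The planned test assumed linear CPM, so they were made linear, freed of the floor and scaled to 1 M per library. The TPM values were used as deposited by the authors. Estimated counts were recovered from the CPM steps (85.0% to 86.3% whole within 0.005 counts), and 1 count was worth 0.0106 to 0.0154 CPM.

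Columns give the diet and the numbers 2, 3, 4 and 6 for high salt and 1, 2, 3 and 6 for normal salt, whereas titles are numbered otherwise, so a library is called by its diet and column.

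Genes with at least 1 CPM in at least 4 libraries were fitted with limma 3.58.1 in R 4.3.3 (lmFit, eBayes with trend) on log2(CPM + 1), two-sided, with Benjamini-Hochberg adjustment over 13401 genes. Fold changes on this scale understate the change of low genes. The fit was also run on simulated counts. These held no effect of transcript length, so that run does not cover the pattern of normal-salt library 1. Exact permutation tests covered all 70 assignments of the libraries. Alternatives covered pseudocount, filter, scaling, TPM, voom, moderation, weights, marker covariates, a replicate block and leaving out each library. Positions and transcript lengths come from GENCODE M21 (mm10), found by symbol.

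Each library is 1 mouse. Named are all members, the 3 pathway genes with the smallest p, and Rbpj, Adam10, Notch4, Hes5, Nrarp, the fate factors, 8 markers and the 4 genes most like Hes1 and Jag1; 1 further gene of the rule is not reported here. The members and lists were chosen with earlier results of these data known.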

Additional observations from a re-analysis of the deposited data

Results flagged for a closer look

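Each of 32 named genes was checked in both diets, 64 groups of 4 libraries in all, for a library far from the other 3, and chance alone would single out about 1 in 20 groups. Among the 10 members there was none. In Maml3, normal-salt library 6 stood at 21.8 CPM, while the other 3 libraries of the diet had 15.3 to 15.97 CPM. In Umod, high-salt library 6 stood at 1695 CPM, while the other 3 had 35.7 to 248 CPM. Slc12a1 showed the same in high-salt library 6, at 563 CPM against 23.5 to 110 CPM in the other 3. Both of these genes mark the thick ascending limb.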

How the results depend on the processing

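Across 26 alternatives the members kept their direction in 246 of 257 values, and 1 value was called. The filter settings and robust moderation cannot change a log2 fold change, so their agreement in direction was fixed in advance. The 6-library fits with and without the replicate block gave the same log2 fold changes, so they are not separate checks of direction. Dll1 had -0.0904 both with the replicate block and in the same 6 libraries without it (the second was chosen after seeing the data), and -0.0131 to 0.194 with 1 library left out. Mib1 had -0.0660 on TPM, -0.0318 in both of those 6-library fits, and -0.0620 to 0.184 with 1 library left out. Notch3 was called with the fibroblast and pericyte covariate (0.659), which made 1 member called. Without normal-salt library 1 as well, in fits chosen after seeing the data, the fibroblast and pericyte covariate gave Jag1 -0.0502, Hey1 -0.0438 and Mib1 -0.0187, and the thick ascending limb covariate gave Mib1 -0.0434; these called 0 members, and 2 and 71 of all genes. The cause was not tested. Over all genes limma called 11, against 0 without a filter (1933 at an unadjusted p under 0.05), 5 on TPM, 22 with robust moderation, 129 with library weights, 37 with the thick ascending limb, 65 with the endothelium and 308 with the fibroblast and pericyte covariate, and 0 to 49 with 1 library left out: 0 without high-salt library 4 (908 with an unadjusted p under 0.05) or without normal-salt library 3 (1224), 1 without high-salt library 3 or normal-salt library 6, 5 without high-salt library 2 and 49 without normal-salt library 1. The replicate block, possible for the numbers 2, 3 and 6, gave 37 calls, against 23 without it in the same libraries, and 0 members. With the block, Notch1, Notch2, Notch3 and Hes1 had limma unadjusted p of 0.0143, 0.00461, 0.0159 and 0.0176, where 1770 of 13401 genes passed 0.05. Without the block, in the same libraries, limma gave 0.0684, 0.00579, 0.018 and 0.297, where 1410 genes passed. The labels do not say that the numbers pair mice, so the numbers were not taken as pairs. Same-numbered libraries deviated from their diet means with correlations of 0.208, 0.287 and 0.00201, against -0.275 to 0.296 for libraries of different numbers. By CPM in place of TPM, 2 of 10 members kept their rank in the order of levels, since CPM does not take length into account. Jag2 and Hey1 fell under a minimum of 5 CPM, and Jag2 under the minimum on TPM, so these values are missing; both rest on the fewest counts.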
